A study of Mus musculus with 4 samples.

Results

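The barcodes described here carry the RNA of the megakaryocyte lineage in a bone marrow fraction that was sorted to leave blood cells out. They were selected on their own counts. A barcode was kept with at least 1000 UMIs (unique molecular identifiers, 1 per captured RNA molecule), at least 500 detected genes and at most 10% of UMIs from mitochondrial genes. A kept barcode was a member with at least 5 UMIs of Pf4, at least 1 UMI of Itga2b, Gp9 or Gp1bb, and no UMI of Cdh5, an endothelial cadherin. These terms were met by 174 of 16658 kept barcodes, and 156 of the 174 had a UMI of all 3 receptor genes. The genes that led the members were megakaryocyte and platelet genes throughout, but 107 of the 174 held no UMI of Malat1, an RNA retained in the nucleus. Whether these are whole cells was not tested, and all 174 are called Pf4-gated barcodes below.

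The 4 libraries were made from marrow of the limbs of C57BL/6 mice, 12 days after birth (P12). Control 1 and control 2 are labelled control, with no alleles named, mutant 1 is labelled Prx1-cre;Mettl3-fl/fl, and mutant 2 is labelled only mutant. Viable cells lacking CD45 and Ter119 were sorted from 3 control and 3 mutant mice, and the labels do not tie mice to libraries, so the tests below measure only the spread between libraries. Prx1-Cre is driven by a limb mesenchyme enhancer, so the deletion of Mettl3, the catalytic subunit of the RNA m6A methyltransferase, is directed to mesenchymal cells and not to the megakaryocyte lineage. In the submitters' processing notes control 1 and mutant 1 share 1 software version and control 2 and mutant 2 another, called batch 1 and batch 2 below. The headers of some matrices name other versions and do not show this pairing, so the batches rest on the notes alone.

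Megakaryocytes are large polyploid marrow cells that arise from stem cells under the hormone thrombopoietin. As they mature they replicate their DNA without dividing, fill alpha granules with chemokines and matrix proteins, and extend proplatelets that break up into platelets, which carry messenger RNA but no nucleus. In the marrow they border sinusoids and supply CXCL4 (the product of Pf4), latent TGF-beta1 and PDGF to stem cells and stromal cells.

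Promoter sequences are shown for the genes that lead the members or gate them, because the megakaryocyte programme is known to be read through GATA and ETS factors. The 250 bases before the RefSeq transcript start (RefSeq, GRCm38.p6) were searched on both strands for GATAA and AGGAAG, which do not overlap each other in these windows, and matches are in capitals. Pf4 and Ppbp are neighbours on chromosome 5, with Ppbp at chr5:90768518-90770063 and Pf4 at chr5:90772435-90773383, both on the plus strand (mm10, GENCODE M21). Itga2b lies at chr11:102453297-102470122 on the minus strand, and the RefSeq start used lies inside that span. Gp9 lies at chr6:87778072-87779768 on the plus strand.
Pf4, chr5:90772185-90772434, plus strand: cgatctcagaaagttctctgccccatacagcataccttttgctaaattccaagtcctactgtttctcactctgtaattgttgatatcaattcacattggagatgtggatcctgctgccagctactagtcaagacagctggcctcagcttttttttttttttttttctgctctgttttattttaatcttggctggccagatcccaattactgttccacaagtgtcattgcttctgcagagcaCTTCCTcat
Ppbp, chr5:90768268-90768517, plus strand: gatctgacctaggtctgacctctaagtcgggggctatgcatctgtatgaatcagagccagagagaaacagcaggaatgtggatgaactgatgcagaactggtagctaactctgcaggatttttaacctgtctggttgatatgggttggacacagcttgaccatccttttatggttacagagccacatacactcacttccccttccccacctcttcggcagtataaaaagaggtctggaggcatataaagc
Itga2b, chr11:102469884-102470133, minus strand: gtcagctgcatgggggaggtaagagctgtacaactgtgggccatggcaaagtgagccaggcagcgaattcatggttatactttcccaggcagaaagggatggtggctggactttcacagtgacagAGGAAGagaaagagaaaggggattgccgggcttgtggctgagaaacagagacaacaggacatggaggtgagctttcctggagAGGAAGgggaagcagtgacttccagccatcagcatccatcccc
Gp9, chr6:87777820-87778069, plus strand: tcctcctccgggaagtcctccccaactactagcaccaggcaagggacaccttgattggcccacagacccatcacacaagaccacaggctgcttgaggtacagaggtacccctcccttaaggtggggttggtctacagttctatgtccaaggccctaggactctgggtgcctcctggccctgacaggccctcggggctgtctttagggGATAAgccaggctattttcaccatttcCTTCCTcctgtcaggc
Pf4 held 1 AGGAAG on the opposite strand, 9 to 4 bases before the start. Itga2b held 2 on its own strand, at 125 to 120 and at 43 to 38 bases before the start. Gp9 held a GATAA at 43 to 39 bases and an AGGAAG on the opposite strand at 16 to 11 bases before the start, and Ppbp held neither. Over all 32851 promoters of the table, 22.6% held a GATAA and 29.5% an AGGAAG in the same window. Of the 21 promoters listed for 20 of the 25 leading genes below, 38.1% and 47.6% held them. A match describes the letters only.

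The libraries held between 47390414 and 116863081 UMIs in all, and kept barcodes had a median of 15058.5 and 24080 UMIs in the controls and 16445.5 and 10186 in the mutants. No barcode sequence of a member occurred in more than 1 library, against 27 among all kept barcodes. Mutant 1 holds 1 member, and the members of control 1 stood apart from those of control 2 and mutant 2 in ribosomal and mitochondrial RNA, so values are given per library and without single libraries where it matters. A doublet caller ranked 6 of the 174 among its likely doublets. Free RNA, read in droplets of 10 to 100 UMIs, held Pf4 at 709 CPM (UMIs of a gene per 1000000 UMIs of the set) in control 1, 106 in control 2 and 35.3 in mutant 2. The file of mutant 1 holds called barcodes only, so its free RNA could not be read. The 5 members with 5 or 6 Pf4 UMIs had a median of 1201 UMIs, 1 receptor UMI and 10 UMIs of the late maturation list defined below. The 12 barcodes just outside, with 3 or 4 Pf4 UMIs, had a median of 2856 UMIs, 1.5 receptor UMIs and 8 late-list UMIs. Of the 219 kept barcodes with at least 5 Pf4 UMIs, 38 were left out for a Cdh5 UMI and 7 for lacking a receptor UMI.

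Pf4-gated barcodes were rare in every library and were almost absent from mutant 1. They made up 54 of 5808 kept barcodes in control 1 (0.930%, exact binomial 95% interval 0.699 to 1.21) and 86 of 3635 in control 2 (2.37%, 1.90 to 2.91). In the mutants they made up 1 of 2628 in mutant 1 (0.0381%, 0.000963 to 0.212) and 33 of 4587 in mutant 2 (0.719%, 0.496 to 1.01). Both mutant shares were below both control shares. The mean was 1.65% in controls and 0.379% in mutants, a difference of -1.27 percentage points, with a two-sided exact permutation p of 0.33, below which 2 libraries against 2 cannot go. The difference was -0.892 points in batch 1 and -1.65 points in batch 2, -1.99 without control 1 and -0.551 without control 2. Every barcode was also thinned to 1000 UMIs before gating, with the Pf4 term lowered from 5 UMIs to 1. Under that looser gate the shares were 0.844%, 2.37%, 0.0381% and 0.807%, from 49, 86, 1 and 37 members. The share also depends on what else was kept. Barcodes meeting a gate on erythroid marker genes numbered 3535 and 2610 in the controls and 72 and 329 in the mutants, and the part of this composition in the difference was not tested.

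Malat1 was at 0 UMIs in most Pf4-gated barcodes of the controls and in fewer of mutant 2. No Malat1 UMI was read in 37 of 54 members of control 1 (68.5%, 54.4 to 80.5), 58 of 86 of control 2 (67.4%, 56.5 to 77.2), the single member of mutant 1, and 11 of 33 of mutant 2 (33.3%, 18.0 to 51.8). Among the other kept barcodes 7.68%, 2.28%, 2.78% and 1.21% lacked it. Thinned to 1000 UMIs each, 9.26% and 11.6% of members of control 1 and control 2 held a Malat1 UMI, none in mutant 1 and 60.6% in mutant 2. Of the members of mutant 2 with Malat1, 9 also carried over 1% of UMIs from mesenchymal marker genes, and their part in this difference was not tested. In the erythroid gate at the same depth the shares were 81.3%, 87.9%, 90.3% and 91.8%. All intervals cover counting error only.

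Members were therefore also described by their Malat1 count, with at most 2 UMIs called Malat1-poor and more than 2 called Malat1-rich. This split was set after the counts were seen. It gave 51 and 78 Malat1-poor members in the controls and 1 and 17 in the mutants, beside 3 and 8 Malat1-rich members in the controls and 0 and 16 in the mutants. Near the boundary, 40 members held 1 or 2 Malat1 UMIs and 4 held 3 to 6. Summed over Malat1-poor members, Malat1 stood at 24.7 CPM in control 1, 46.2 in control 2 and 152 in mutant 2, against 6581, 6092 and 12184 CPM in the other kept barcodes. Poor members of mutant 2 were shallower, with a median of 2910 UMIs against 8979 in control 1 and 4542.5 in control 2.

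**Figure D1:**
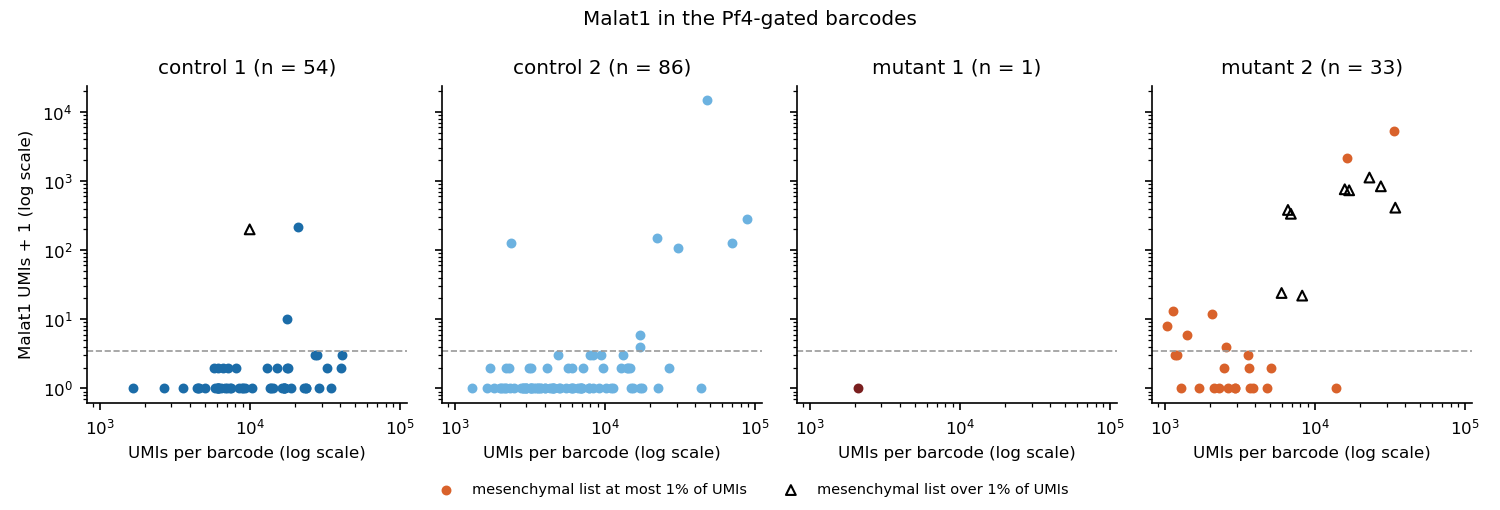
Malat1 UMIs plus 1 (log scale) against UMIs per barcode (log scale) for each Pf4-gated barcode of the 4 libraries, with the boundary of 2 UMIs dashed and open triangles for barcodes with over 1% of UMIs in the mesenchymal marker list. Most points of control 1 and control 2 lie at 0 to 2 UMIs, while 16 of 33 in mutant 2 lie above, 9 of them triangles. The deepest points of control 2, at 48100, 69707 and 88817 UMIs, lie above the boundary.

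The 27 Malat1-rich members were of several kinds, grouped here after their values were seen. In 10 of them, 1 in control 1 and 9 in mutant 2, markers of mesenchymal and bone-forming cells took over 1% of UMIs. Their summed counts held Spp1 at 43795 CPM, Col1a1 at 29784 and Ibsp at 6167 beside Pf4 at 10386 CPM. Pf4 was uneven among them. Those of mutant 2 held 6, 10, 10, 14, 180, 187, 219, 477 and 491 Pf4 UMIs, and the one of control 1 held 16. Spp1 and Ibsp encode bone matrix sialoproteins and Col1a1 the main collagen of bone, and the doublet caller marked none of the 10. In free RNA of mutant 2, Col1a1 stood at 14656 CPM and Spp1 at 14282, and their part in these barcodes was not tested.

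In 3 others, 1 in control 2 and 2 in mutant 2, Malat1 alone took over 10% of UMIs. The one in control 2 held 14685 Malat1 UMIs of 48100 (30.5%) with 53 UMIs of Itga2b, and the deepest in mutant 2 held 5354 of 33686 (15.9%) with 71 of Itga2b. Summed over the 3, Gata1, the lineage's GATA factor, stood at 1100.1 CPM and the imprinted gene Mest at 5460 CPM. Ribosomal protein genes took 1.13% of UMIs in the barcode of control 2 and 0.543% and 10.98% in those of mutant 2.

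In 5 others, 1 in control 1 and 4 in control 2, the barcode held over 20000 UMIs with Malat1 at or under 10% and mesenchymal markers at or under 1%. Summed, they held Npm1, a nucleolar chaperone, at 3826 CPM, Hspd1 at 973, Tfrc, the transferrin receptor, at 732 and Mki67, a proliferation marker, at 469 CPM. The deepest pair, in control 2 with 69707 and 88817 UMIs, had 37.4% and 32.3% ribosomal protein UMIs and 14 and 48 Mki67 UMIs. The erythroid gene Car2 stood at 2053 CPM over the 5. The caller marked 1 of these 5, the barcode of 69707 UMIs. The remaining 9 fell under none of these terms.

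The genes that set the members apart were those of platelet granules, adhesion receptors and eicosanoid enzymes. Since the gate chose the members, the values are a description with no test. Candidates were the 373 genes of at least 100 CPM in members of every library. In mutant 1 a single UMI met this, since 1 UMI of its only barcode equals 481 CPM. Ranked by smallest log2 ratio over the 4 libraries to the other kept barcodes, with 1 CPM added to both, Ppbp was first at 11.61. Ppbp is a granule chemokine that lies beside Pf4 and was not part of the gate. Its level over members was 12831 and 9035 CPM in control 1 and control 2, 7212 in mutant 1 and 5796 in mutant 2, and under 1 CPM in other kept barcodes of each library. Clec1b, the podoplanin receptor CLEC-2, followed Pf4 at 2395, 3094, 6250.0 and 3491 CPM. The next were Treml1, a granule membrane receptor, Alox12, the platelet 12-lipoxygenase, and the gate genes Gp1bb and Itga2b. The rest of the 25 included Cd226, Tubb1, Pls1, Gp9, Capn3, Ctla2b, Gnaz, Gp5, Plek, Slc6a4, Itgb3, Mpig6b, Rbpms2, Gp1ba, F2rl2, Tbxas1 and Bin2.

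By role, members were read against the other kept barcodes with a rule of over 4-fold higher in control 1, control 2 and mutant 2, on genes with a mean of at least 20 CPM in members. The rule was passed by 356 of 4510 genes (7.89%), with a median log2 ratio of -0.25. Among surface receptors 21 of 26 genes at that level passed, among signalling proteins and enzymes 18 of 21, among alpha granule genes 13 of 17 and among proplatelet cytoskeleton genes 18 of 25. The gate used this contrast, so nothing is read from these counts.

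Within the Malat1-poor members the receptors were read at levels that differed between libraries. Gp5, a subunit of the von Willebrand factor receptor, stood at 684 CPM in control 1, 967 in control 2 and 1996 in mutant 2, and the collagen receptor Gp6 at 274 CPM in control 1, 443 in control 2 and 659.8 in mutant 2. Itgb3, the partner of Itga2b in the fibrinogen receptor, stood at 404 CPM in control 1, 1047 in control 2 and 2909.7 in mutant 2. All 3 ran upward from control 1 over control 2 to mutant 2. Selp (P-selectin) ran otherwise, at 106 CPM in control 1, 31.4 in control 2 and 33.8 in mutant 2. In these members of mutant 2, 1 UMI equals 16.9 CPM, so its Selp value rests on few UMIs. The single mutant 1 barcode, of 2080 UMIs, held 107 UMIs of Pf4, 22 of Itga2b, 18 of Gp9, 13 of Clec1b and 4 of Itgb3, and none of Malat1. In that barcode 1 UMI equals 481 CPM.

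Granule, cytoskeleton and enzyme genes were present in every library with more than 1 member. Vwf, the granule protein that bridges platelets to collagen, stood at 186 CPM in control 1, 500.3 in control 2 and 711 in mutant 2 and F5 (coagulation factor V) at 128 CPM in control 1, 463 in control 2 and 1066 in mutant 2. Tubb1, the beta-tubulin of the platelet marginal band, stood at 261 CPM in control 1, 591 in control 2 and 389 in mutant 2, and Myl9, a myosin light chain, at 3549 CPM in control 1, 8416 in control 2 and 6039 in mutant 2. These 4 were lowest in control 1, and Tubb1 and Myl9 were highest in control 2. Tbxas1 (thromboxane synthase) stood at 184 CPM in control 1, 329 in control 2 and 491 in mutant 2. Rasgrp2, the calcium-sensing activator of Rap1, stood at 3127 CPM in control 1, 2448 in control 2 and 1895 in mutant 2 and Rgs18 at 1969.7 CPM in control 1, 1198 in control 2 and 1438 in mutant 2. These last 2 were highest in control 1.

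Of 18 transcription factors of the lineage, 3 (Gata2, Meis1 and Nfe2) passed the same 4-fold rule, against 356 of all 4510 genes (7.89%). Nothing is read from this count either. Nfe2, which drives proplatelet formation, stood at 205 CPM in control 1, 234 in control 2 and 372 in mutant 2 in Malat1-poor members. Fli1, an ETS factor, stood at 359 CPM in control 1, 155 in control 2 and 186 in mutant 2, and Gata1 at 229 CPM in control 1, 103 in control 2 and 169 in mutant 2. Fli1 and Gata1 were read most in control 1. In mutant 2, Gata1 had 10 UMIs in 3 of 17 barcodes, with 7 UMIs in 1 barcode, so its rank there is uncertain. Of the progenitor genes, Kit was read in 3 UMIs, all in control 2, and Mecom in none. Slamf1 (CD150), which marks stem cells and the megakaryocyte lineage, stood at 97.3 CPM in control 1, 185 in control 2 and 406 in mutant 2.

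Markers of other types were low outside the Malat1-rich barcodes. The 16 erythroid genes together took 0.0785% and 0.401% of member UMIs in the controls and 0.433% and 0.162% in the mutants. The 14 mesenchymal genes took 0.0518%, 0.0350%, 0.337% and 5.96%, and in Malat1-poor members 0.00639%, 0.00425%, 0.337% and 0.139%. Lists for neutrophils, endothelium, B cells, macrophages and mast cells each took at most 0.0328% over all members of any library. In Malat1-poor members they took at most 0.0406%, the endothelial list in mutant 2. In mutant 1 and mutant 2 all 10 macrophage genes were at 0. Ptprc, which encodes the CD45 used in the sort, had 2 UMIs in control 1, 1 in control 2 and none in the mutants.

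Maturation was read with 3 lists that leave out the gate genes: 24 late genes (such as Ppbp, Tubb1, Gp6, Vwf and Treml1), 24 early genes (such as Kit, Gata2 and Npm1) and 39 genes of the cell cycle and endomitosis. The late list took the most UMIs of the 3 in every library. It took 361 and 423 of every 10000 UMIs in control 1 and control 2, 769 in mutant 1 and 345 in mutant 2, against 0.220 to 0.444 in the erythroid gate. The mutant mean exceeded the control mean by 165 per 10000, with a two-sided exact permutation p of 1. The sign differed between batches, with 408 in batch 1, which rests on 1 mutant barcode, and -78.6 in batch 2. The difference was -47.5 without mutant 1. Groups overlapped over all members. In Malat1-poor members the late list took 367 and 588 in the controls and 769 and 705 in the mutants. There both mutant values lay above both control values, by 259 in the mean, with an exact permutation p of 0.33, the smallest possible. Without members of over 1% mesenchymal marker UMIs, it took 366 and 423 in the controls and 769 and 525 in the mutants.

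The early list took 13.7, 28.9, 0 and 19.1 of every 10000 UMIs, and the difference of -11.7 between genotype means had an exact permutation p of 0.667 and was -2.16 without mutant 1. It was -13.7 in batch 1 and -9.74 in batch 2. In Malat1-poor members the early list took 13.7 and 7.98 in the controls and 0 and 11.5 in the mutants. There mutant 2 lay above control 2, and the difference was -5.07 with an exact permutation p of 0.667. The cell cycle list took 22.9, 27.3, 4.81 and 14.2. Here both mutant values lay below both control values, by -15.6 in the mean, with an exact p of 0.33, the smallest possible. The difference was -18.0 in batch 1 and -13.2 in batch 2, and the value of mutant 1 is 1 UMI of 2080. In Malat1-poor members the list took 23.2 and 19.4 in the controls and 4.81 and 22.5 in the mutants, so mutant 2 lay above control 2, and the difference was -7.63 with an exact p of 0.667. The erythroid gate held 75.1, 82.8, 65.1 and 85.3 of the cell cycle list. Of that list, Ccnd2 stood at 586 CPM in Malat1-poor members of control 1, 107 in control 2 and 16.9 in mutant 2. Over all members, the cell cycle inhibitor Cdkn2d stood at 655 CPM in control 1, 406 in control 2 and 465 in mutant 2. Ccnd3, the cyclin D3 of megakaryocyte endomitosis, stood at 565 CPM in control 1, 708 in control 2 and 495 in mutant 2. Mki67 stood at 6.78 CPM in control 1, 141 in control 2 and 7.62 in mutant 2, from 5, 118 and 2 UMIs, and the 5 deep barcodes above held 109 of these.

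**Figure D2:**
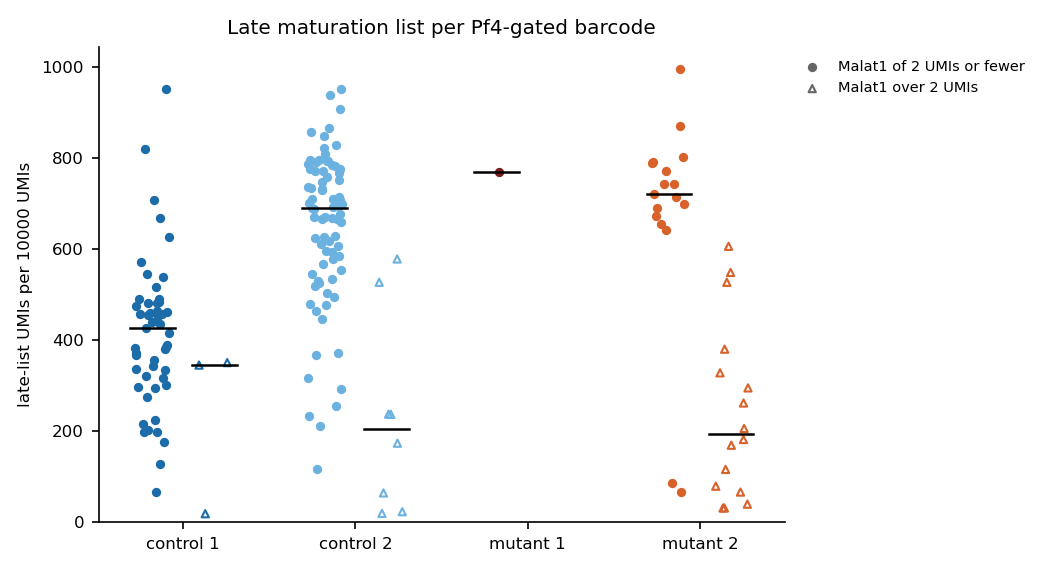
Late-list UMIs per 10000 UMIs for each Pf4-gated barcode, by library, with filled circles for at most 2 Malat1 UMIs, open triangles for more, and bars at the medians. Medians of filled circles are 427 and 689 in the controls and 769 and 721 in the mutants, and those of triangles 345, 206 and 194 in the libraries that have any.

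Barcodes varied widely in the late list within each library. In control 1 the lowest, median and highest values were 19.1, 402 and 951 per 10000, in control 2 19.8, 669 and 952, and in mutant 2 31.7, 549 and 995. In Malat1-poor members the medians were 427, 689 and 721, so mutant 2 lay near control 2 and both lay above control 1. Values under 100 per 10000 occurred in 2, 3 and 7 members, of which 1, 0 and 2 were Malat1-poor. The 2 in mutant 2 held 1163 and 1201 UMIs with 5 and 6 Pf4 UMIs, and 23.0% and 26.0% ribosomal protein UMIs.

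Members were ranked by the late list within each library and their lowest and highest terciles set side by side, with 18, 28 and 11 members a side in control 1, control 2 and mutant 2. Terciles are ranges of a score and were not tested. The early list was lower in the highest tercile in all 3 libraries, at 6.52 against 19.5 per 10000 in control 1, 7.10 against 40.9 in control 2 and 7.94 against 28.5 in mutant 2. The share of ribosomal protein UMIs was lower as well, at a median of 12.05% against 20.01%, 3.89% against 12.5% and 3.71% against 17.2%. The lowest tercile held 1, 7 and 9 Malat1-rich members and the highest none, so both differences move with the Malat1 classes. Among Malat1-poor members alone, with 17, 26 and 5 a side, the early list was at 6.43 against 19.3 per 10000 in control 1, 7.03 against 8.81 in control 2 and 8.63 against 16.4 in mutant 2, so the gap in control 2 nearly closed. Npm1, an early-list gene chosen after its values were seen, was at 144 against 939 CPM, 37.4 against 238 and 78.4 against 310.1.

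Outside the late list, the 10 genes with the largest smallest-library ratio in favour of the highest tercile were Hist1h2bc, Csgalnact1, Igtp, Ly6g6c, Ptpn18, Plekha2, Srgn, Slamf1, Sh2b3 and Lyz2. Hist1h2bc, a histone gene, was at 574 against 88.0 CPM in control 1, 3990.4 against 664 in control 2 and 4142 against 726 in mutant 2. Srgn, the proteoglycan serglycin that packs granule proteins, was at 2350.2 against 619, 5013 against 1027 and 3887 against 968 CPM. Among Malat1-poor members alone, Hist1h2bc was at 575 against 78.2, 3970.2 against 1272 and 4235 against 2304 CPM. Srgn was there at 2349 against 638, 5069 against 1710.2 and 4470.2 against 4120 CPM, so in mutant 2 its gap nearly closed. Over all members, Lyz2 (lysozyme) was at 658 against 182, 1882 against 311 and 1475 against 184 CPM. In favour of the lowest tercile were Siva1, Malat1, Eif3e, Gmps, Sparc, Hmgn1, Mrps26, Srsf7, Cdk4 and Smc4, which include a translation factor, a splicing factor and a cyclin-dependent kinase. These sums include the Malat1-rich members of that tercile. In mutant 2, 7 of its 11 members carried over 1% of UMIs from mesenchymal marker genes. For Sparc, 1 barcode held 69 of the 99 UMIs over all members of control 1, and 1 held 78 of 80 in control 2. Of these genes, only Siva1 and Eif3e were also read in Malat1-poor members alone. Siva1, a proapoptotic adaptor, had no UMI in the highest tercile of any of the 3 libraries, and a count of 0 allows up to 3. In the lowest tercile of Malat1-poor members, Siva1 had 18 UMIs in control 1, 9 in control 2 and 0 in mutant 2. Eif3e had 82, 26 and 0 there, so neither gene parted the terciles of Malat1-poor members in mutant 2, with 5 members a side.

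The members of control 1 differed from those of control 2 and mutant 2 in their ribosomal and mitochondrial RNA. The median share of ribosomal protein UMIs was 15.3% in control 1, 4.62% in control 2, 4.09% in the mutant 1 barcode and 6.34% in mutant 2, against 32.9%, 28.9%, 25.5% and 17.5% in the other kept barcodes. The median mitochondrial share was 0.129%, 1.73%, 0.481% and 2.47%. Under 0.3% lay 33 of 54 members in control 1, 9 of 86 in control 2 and 2 of 33 in mutant 2. Control 1 and control 2 share the label control, so these differences lie between libraries of 1 label.

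**Figure D3:**
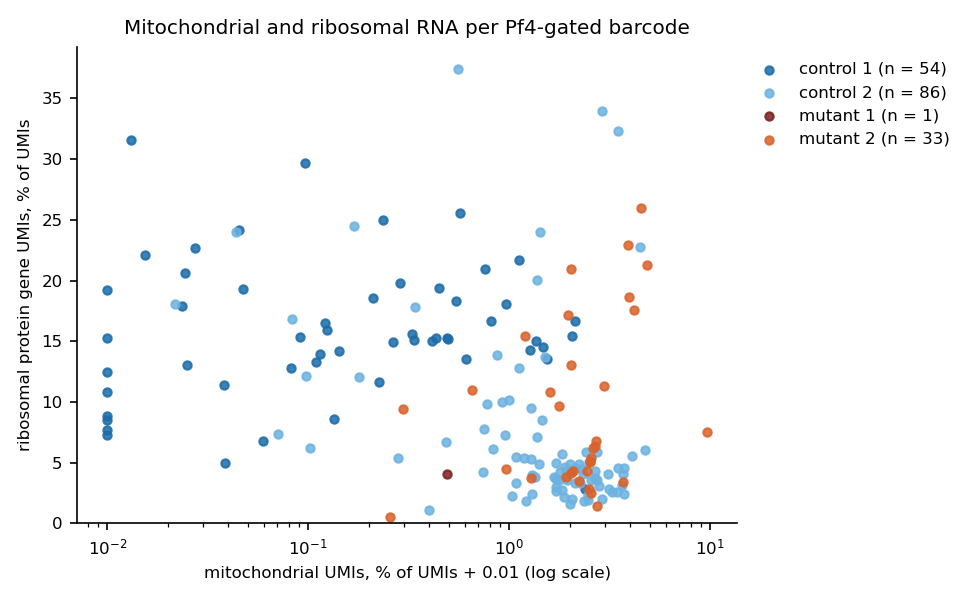
Share of UMIs from ribosomal protein genes against the share from mitochondrial genes plus 0.01 (log scale) for each of the 174 Pf4-gated barcodes, coloured by library. Control 1 spreads over low mitochondrial shares (median 0.129%) at a ribosomal median of 15.3%, while control 2 gathers near 1.73% and 4.62%.

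Gene by gene, control 1 stood apart in Malat1-poor members. Of 949 genes with at least 200 CPM in 1 of 3 libraries, and with 20 CPM added to both sides, 208 (21.9%) were over 2-fold above control 2 in control 1 and 133 (14%) over 2-fold below. Against both control 2 and mutant 2, 191 (20.1%) were above and 111 (11.7%) below. These are folds between single libraries with no test. Ribosomal protein genes were above in 61 of 79, and 6 of 8 mitochondrial genes were below, which are among the 111. The late list was below in 12 of 22, among them Treml1, Vwf, F5, Thbs1 and Itgb3, and surface receptors in 9 of 18.

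The genes with the largest folds upward in control 1 were Jun, Cited2 and Ccnd2. Jun, an immediate early transcription factor, stood at 290.3 CPM in control 1, 5.54 in control 2 and 0 in mutant 2. Ccnd2 (cyclin D2) stood at 586 CPM in control 1, 107 in control 2 and 16.9 in mutant 2. Downward they were the linker histone Hist1h1c, at 148 CPM in control 1, 1996 in control 2 and 2335 in mutant 2, the TGF-beta-induced leucine zipper gene Tsc22d1, at 321 CPM in control 1, 3769.8 in control 2 and 5227 in mutant 2, and Hist1h2bc, at 264 CPM in control 1, 2365 in control 2 and 3553 in mutant 2. Ctla2a, a protease inhibitor gene, stood at 2169 CPM in control 1, 11789 in control 2 and 20047 in mutant 2.

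A split of Malat1-poor members at 0.3% mitochondrial UMIs, set after the values were seen, moved many of the same genes inside control 2. Its 8 members under 0.3% held Tsc22d1 at 403 CPM against 4266 in the 70 others, Ctla2a at 2530.3 against 13153, Thbs1 at 144 against 3643, Itgb3 at 158 against 1178, and Rps18 at 1927 against 474. Of the 191 genes high in control 1, 126 (66.0%) were over 2-fold higher in these 8, and of the 111 low in control 1, 77 (69.4%) were over 2-fold lower, against 17.7% and 19.1% of all 949. The 191 and 111 genes were chosen with the values of control 2, which come mostly from its 70 members of higher share, and the 111 include the 6 mitochondrial genes, whose direction the split itself sets. Inside control 1, with 32 members under 0.3% and 19 above, 0 of the 191 and 23 of the 111 (20.7%) did so, against 0.738% higher and 5.90% lower of all 949. Below against above 0.3% in control 1, Thbs1 was at 217 against 1732 CPM and Itgb3 at 166 against 755, the direction of control 2. Tsc22d1, at 402 against 201, and Ctla2a, at 2623 against 1498, ran the other way there. Rps18 was at 2518 against 2497. Jun differed between the libraries on both sides of the split: it stood at 256 and 341 CPM below and above 0.3% in control 1, and at 0 and 6.35 CPM in control 2.

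**Figure D4:**
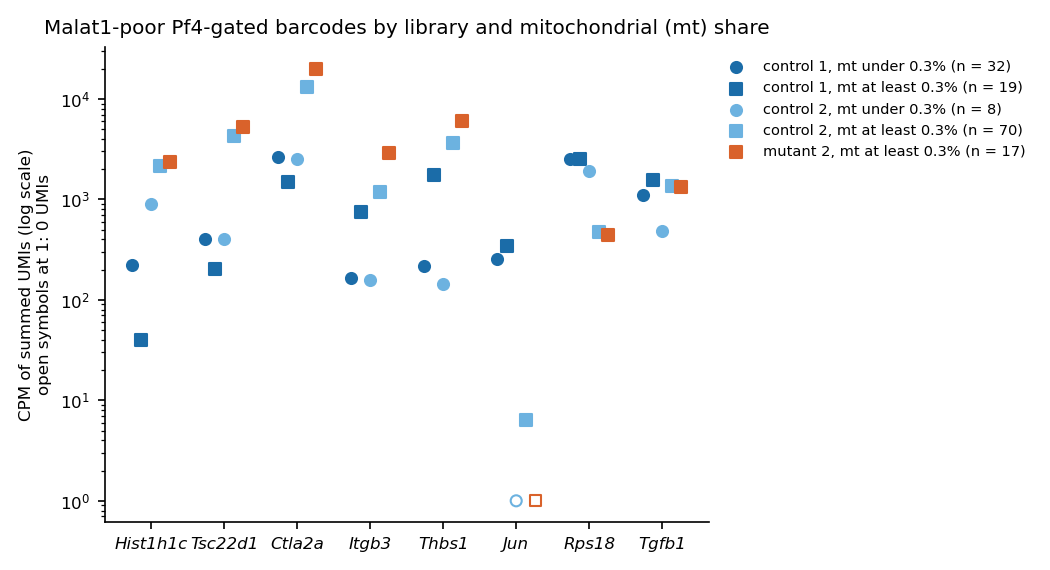
Level (CPM of summed UMIs, log scale) of 8 genes in Malat1-poor members by library, with circles for members under 0.3% mitochondrial UMIs, squares for the others and open symbols at 1 for 0 UMIs. In control 2, Tsc22d1, Ctla2a, Itgb3 and Thbs1 are lower in circles than in squares and Rps18 is higher, while Jun is at 256 and 341 CPM in control 1 and at most 6.35 CPM in control 2. In control 1, Itgb3 and Thbs1 are also lower in circles, but Tsc22d1 and Ctla2a are higher.

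Mutant 2 was the only mutant library with enough members to compare. In Malat1-poor members 44 of the 949 genes (4.64%) were over 2-fold above both controls and 63 (6.64%) over 2-fold below both. No test was made, since mutant 1 holds 1 member. A gene could enter the 949 through mutant 2 alone, the shallowest of the 3, so the entry rule helps to set the count above, and nothing is read from it. The first 4 upward were Col1a1, Spp1, Col1a2 and Sparc, with Col1a1 at 27.6 CPM in control 1, 5.54 in control 2 and 524 in mutant 2 in 31 UMIs of mutant 2. Free RNA of that library holds Col1a1 at 14656 CPM. Receptors above both controls were Gp5, Itgb3, Itga2 and Itga6, 4 of 18, and none of the 18 was below. Below both controls were Slpi, a secreted protease inhibitor, at 1149.6 CPM in control 1, 962 in control 2 and 254 in mutant 2, and Pebp1, at 206 CPM in control 1, 127 in control 2 and 0 in mutant 2, and 9 of 79 ribosomal protein genes. The 17 members of mutant 2 hold 59112 UMIs, so 0 UMIs allows up to 50.8 CPM. Mettl3 itself had 2 and 4 UMIs in the members of the controls and 0 and 1 in those of the mutants, too few to compare.

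The niche factors read in Malat1-poor members were few. Of 44 secreted factors listed, 24 had no UMI in control 1, 28 in control 2 and 29 in mutant 2. At 100 CPM or more were 5, 7 and 10 factors. Pf4, Tgfb1, Angpt1, Ppbp and Thbs1 were among them in all 3 libraries. Kitl (stem cell factor) had no UMI, Thpo (thrombopoietin) none, Vegfa at most 2 UMIs and Cxcl12 6 UMIs in control 1 and none elsewhere. In all members of control 1, 1 Malat1-rich barcode with mesenchymal markers held 216 of the 222 Cxcl12 UMIs and all 25 of Kitl.

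Pf4 chose the members, so its levels are a description. Over members it stood at 34689 and 22987 CPM in the controls and at 51442 and 16131 in the mutants. Per barcode the lowest, median and highest were 16.1, 356 and 755 of every 10000 UMIs in control 1, 8.44, 341 and 732 in control 2 and 8.69, 264 and 589 in mutant 2. The Malat1-poor medians, 364, 354 and 349.9, were close together. Members held 98.4%, 95.9%, 76.4% and 84.9% of all Pf4 UMIs of kept barcodes, and mutant minus control was -22.0 points in batch 1 and -11.0 in batch 2.

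Tgfb1, at chr7:25687002-25705077 (plus strand, mm10), encodes latent TGF-beta1 and, summed over Malat1-poor members, stood at similar levels in the 3 libraries with more than 1 such member. In Malat1-poor members it stood at 1288 CPM in control 1 (Poisson 95% interval 1204 to 1375, 887 UMIs), 1244 in control 2 (1152 to 1342, 674 UMIs) and 1319.5 in mutant 2 (1043 to 1647, 78 UMIs). The intervals overlap. The single barcode of mutant 1 had no Tgfb1 UMI, which allows up to 1442 CPM. Over all members, with the Malat1-rich barcodes in, levels were 1277, 898 and 644 CPM. Thus mutant 2 was lower over all members and not in the Malat1-poor ones.

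The comparison gates, all with Pf4 under 5 UMIs, were the erythroid one above, an endothelial one (Cdh5 of at least 2 UMIs) and a mesenchymal one (at least 5 UMIs over Col1a1, Col1a2, Col3a1, Cxcl12 and Prrx1, and none of Cdh5). Against these gates in the same library, Tgfb1 in Malat1-poor members was 16.8, 17.3 and 34.6 times the erythroid level, 11.1, 10.4 and 7.96 times the mesenchymal level and 4.24, 4.60 and 5.19 times the endothelial level. A Tgfb1 UMI was found in 52 of 54, 79 of 86, 0 of 1 and 25 of 33 members. Thinned to 1000 UMIs, the shares were 72.2%, 62.8%, 0% and 51.5%, against 6.14%, 5.86%, 1.39% and 3.34% in the erythroid gate. Between the lowest and highest terciles by the late list, Tgfb1 over all members was at 1074 and 1483 CPM in control 1, 554 and 1669 in control 2 and 426 and 1163 in mutant 2. Among Malat1-poor members the same values were 1105 and 1468, 943 and 1705, and 1595 and 1647 CPM, so in mutant 2 the gap nearly closed, with 5 members a side.

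As a part of all Tgfb1 UMIs in kept barcodes, members held 9.40% and 8.51% in the controls and 0% and 1.73% in the mutants. The mean difference was -8.09 percentage points (two-sided exact permutation p of 0.33, the smallest possible), with -9.40 in batch 1 and -6.78 in batch 2. Both mutant values were below both control values. The erythroid gate held 64.0% and 69.6% of the Tgfb1 UMIs in the controls. The mesenchymal gate held 93.9% in mutant 1 and 44.3% in mutant 2, where the endothelial gate held 26.1%. The share moves with the number of members, which was 54, 86, 1 and 33.

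Genes that hold and release latent TGF-beta were also read. Lrrc32 (GARP), which anchors it at the cell surface, stood at 68.2 CPM in control 1, 29.5 in control 2 and 118 in mutant 2 in Malat1-poor members. Ltbp1, which ties it to matrix, stood at 62.4 CPM in control 1, 122 in control 2 and 237 in mutant 2. Thbs1 (thrombospondin-1), a granule protein that can activate it, stood at 829 CPM in control 1, 3194 in control 2 and 6090.1 in mutant 2, and had 10 UMIs in the barcode of mutant 1. Thbs1 was lowest in control 1, where the median member had 3.19 per 10000 UMIs against 36.5 in control 2 and 44.0 in mutant 2. In control 1, 1 member held 178 of its 589 UMIs. Of 13 genes of TGF-beta activation and response at 20 CPM or more, 6 passed the 4-fold rule against other kept barcodes. Of all genes at that level 356 of 4510 (7.89%) passed. The gate used this contrast, so nothing is read from the count.

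Pdgfb, at chr15:79995874-80014977 (minus strand, mm10), encodes PDGF-B, a growth factor for stromal and mural cells, and was read mainly in control 1. Malat1-poor members held 87.1 CPM in control 1 (66.5 to 112, 60 UMIs), 12.9 in control 2 (5.20 to 26.6, 7 UMIs) and 50.8 in mutant 2 (10.5 to 148, 3 UMIs). The intervals of the controls do not overlap, and that of mutant 2 overlaps both. A Pdgfb UMI was found in 28 of 54, 8 of 86, 0 of 1 and 1 of 33 members, and the 3 UMIs of mutant 2 all lay in 1 barcode. No Pdgfb UMI was read in the erythroid gate of any library.

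Members held 70.3% of the 91 Pdgfb UMIs in kept barcodes of control 1, 4.17% of 216 in control 2, 0% of 67 in mutant 1 and 0.460% of 652 in mutant 2. The mean difference was -37.0 percentage points (exact permutation p of 0.33), with -70.3 in batch 1 and -3.71 in batch 2, and it was -3.94 without control 1 and -70.1 without control 2. The endothelial gate held 15.4%, 88.4%, 98.5% and 88.3% of the UMIs and had 27, 528, 50 and 865 barcodes. Control 1, with the fewest endothelial barcodes, was the library in which members held most of Pdgfb.

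Pdgfa, the other PDGF chain, ran the opposite way between the controls. It stood at 14.5 CPM in control 1, 137 in control 2 and 169 in mutant 2 in Malat1-poor members, from 10, 74 and 10 UMIs. Over all members of mutant 2 it reached 282 CPM, where 1 Malat1-rich barcode held 32 of 74 UMIs. Angpt1 (angiopoietin-1), a ligand of Tek that is known to act on sinusoids, stood at 129 CPM in control 1, 105 in control 2 and 305 in mutant 2, and 1 barcode of mutant 2 held 12 of its 18 UMIs. Cxcl5 stood at 74 CPM in control 1, 44.3 in control 2 and 118 in mutant 2. Ppbp stood at 13109 CPM in control 1, 13059 in control 2 and 16054 in mutant 2.

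**Figure D5:**
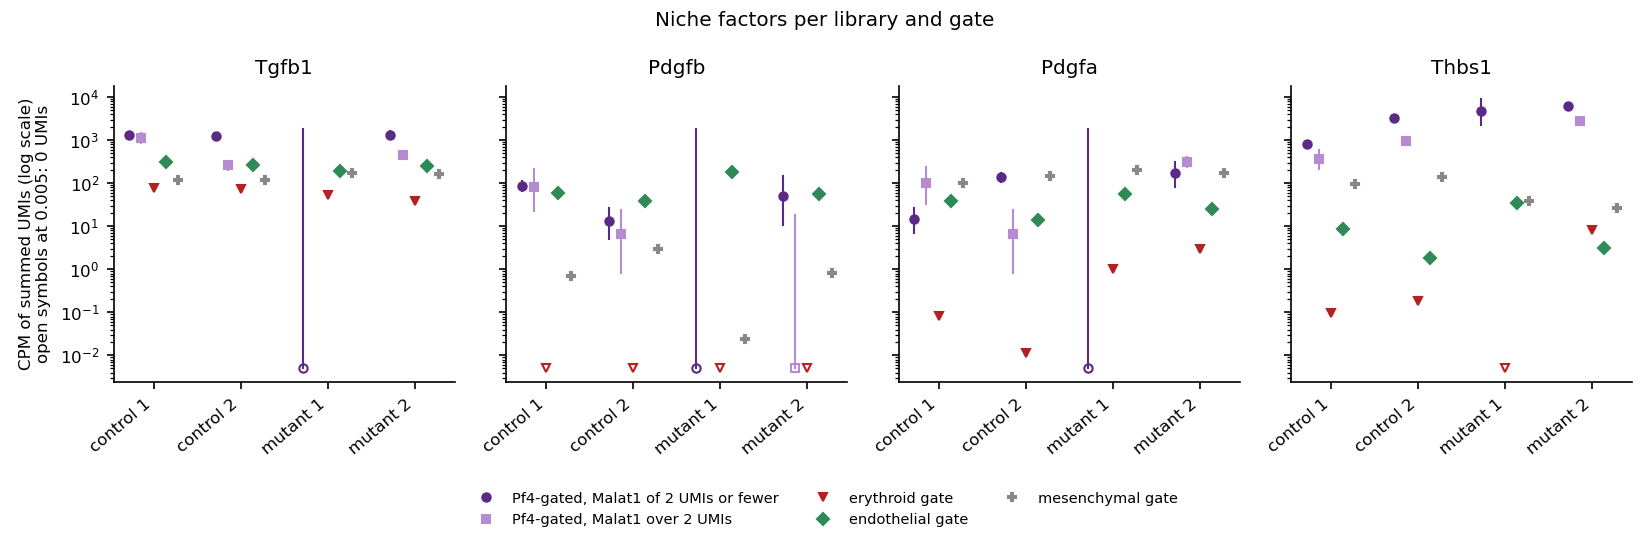
Level (CPM of summed UMIs, log scale) of Tgfb1, Pdgfb, Pdgfa and Thbs1 by library in Malat1-poor and Malat1-rich Pf4-gated barcodes, with Poisson 95% intervals, and in erythroid, endothelial and mesenchymal gates; open symbols at 0.005 mark 0 UMIs. Tgfb1 in Malat1-poor members lies at 1288, 1244 and 1319.5 CPM in control 1, control 2 and mutant 2, above every other gate of the same library, while Thbs1 runs from 829 in control 1 to 6090 in mutant 2.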

How the data were processed

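The authors deposited 1 matrix of raw UMI counts for each of 4 droplet 3′ libraries; per the file headers the values are integers, genes by barcodes, not normalized. Per the submitters' processing notes, Cell Ranger 5.0.1 (control 1, mutant 1) or 6.1.2 (control 2, mutant 2) and mm10 were used, and the headers of some files name other versions, which do not show this pairing. The annotation behind the counts is not given in the sources.

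From these counts, barcodes were kept at 1000 UMIs, 500 genes and at most 10% mitochondrial UMIs, and members were gated as described. The members and lists were chosen with earlier results of these data known. Counts were summed per library and set and given as CPM (UMIs of a gene per 1000000 UMIs of the set). Intervals are exact (binomial by Clopper-Pearson, Poisson for counts, level 95%) and cover counting error only. Libraries, not barcodes, were compared, by exact two-sided permutation over 6 splits. A quasi-likelihood count fit between genotypes was planned for 10 or more members in every library and was not run, since mutant 1 has 1. Named genes were the list genes, the gate genes, the 25 leading genes by smallest-library ratio and the 10 genes on each side of the terciles of members by late list; the genes named in comparisons between libraries of Malat1-poor members were chosen after their values were seen. Doublets were ranked, not removed, with Scrublet as run in scanpy 1.11.5, which ranked 599 kept barcodes. Python 3.11.15, numpy 2.4.6, pandas 2.3.3, scipy 1.17.1 and matplotlib 3.10.9 were used. The fold counts were tested on simulated data with counting error only, so that test does not cover spread in the folds between libraries. Alternatives changed the barcode filters, the Pf4 minimum, the receptor term, doublets, thinning depth and single libraries; those on Malat1-poor members and on mesenchymal markers were chosen after seeing the data. Some list and gate genes are not reported here.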

Additional observations from a re-analysis of the deposited data

Results flagged for a closer look

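The late-list level of Pf4-gated barcodes differed in sign between the batches: mutant 1 minus control 1 was 407.851 per 10000 UMIs, and mutant 2 minus control 2 was -78.5566. Each batch holds 1 library of each genotype and mutant 1 contributes 1 barcode, so the difference between batches was not tested. In Malat1-poor members the level was 769 in mutant 1 against 367 in control 1, and 705 in mutant 2 against 588 in control 2. The sign did not differ between batches there.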

How the results depend on the processing

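Of 78 alternatives over 7 genotype differences, 76 kept the direction, and none of the 7 differences passed a threshold, since 2 libraries against 2 cannot go below an exact p of 0.33. The late-list difference of 165 reversed to -47.5 without mutant 1 and to -87.4 with at least 2000 UMIs and 1000 genes, where mutant 1 has no member. In Malat1-poor members that difference was 259. Leaving out 1 library at a time, the late list ran from -47.5 to 377, the early list from -21.3 to -2.16 and the cell cycle list from -20.3 to -10.9 per 10000; the member share ran from -1.99 to -0.551 percentage points, and the shares of UMIs in members from -20.7 to -12.2 for Pf4, -8.95 to -7.23 for Tgfb1 and -70.1 to -3.94 for Pdgfb. Under the other settings the member share ran from -1.42 to -1.09 and the Pf4 share, a description since Pf4 chose the members, from -56.7 to -16.0, where -56.7 is the setting of at least 2000 UMIs and 1000 genes that leaves mutant 1 with no member. Shares of barcodes with a UMI moved with depth. For Malat1, 9.26% of members in control 1 at 1000 UMIs became 27.1% at 5000 UMIs and 31.5% unthinned, 11.6% in control 2 became 37.2% and 32.6%, and 60.6% in mutant 2 became 92.3% at 5000, where 13 of its 33 members remain, and 66.7% unthinned. For Tgfb1, 72.2% in control 1 became 95.8% and 96.3%, 62.8% in control 2 became 97.7% and 91.9%, and 51.5% in mutant 2 became 84.6% and 75.8%. No paired analysis was possible because replicate numbers follow deposition order and pair no libraries, and no model was fitted. Differences within batches as the processing notes give them are printed with the genotype differences. The alternatives to the genotype count fit were not run, as that fit was not. Depth limits mutant 1 most: 2080 member UMIs allow 1442 CPM at a count of 0.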
